A study of Mus musculus with 9 samples.

Results

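The 9 genes described here encode the protein kinase mTOR, subunits of its complexes mTORC1 and mTORC2, the assembly factor Tti1 and the Akt kinases Akt1 and Akt2. They were picked by symbol from the gene column of the FPKM table (Mtor, Rictor, Mapkap1, Mlst8, Prr5, Rptor, Tti1, Akt1 and Akt2), each was found once, and they make up 9 of the 27095 loci in the table. None of the 9 shares its locus with another gene name. The set was chosen because the study discusses mTORC2 signalling, so genes particular to mTORC1 and genes particular to mTORC2 are set side by side.

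RNA-seq was carried out on 9 wild type C57BL/6 mouse fetuses (C57BL/6J in the study's methods) collected on gestational day 17 (GD17), with 3 fetuses in each of 3 groups. On GD7 the dams received an intraperitoneal injection, which was lactated Ringer's solution for the control group and EtOH at 2.9 g/kg for both exposed groups. Exposed fetuses were scored for ocular and cortical patterning defects and divided into an affected group with defects and an unaffected group without them. The labels call the tissue fetal brain and the study's methods call it cortex, and neither source says which fetuses shared a litter or what sex each of the 9 was. The affected group is therefore defined by the shape of the fetus and not by dose, since both exposed groups had the same exposure.

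The table gives 1 value per locus and group, in fragments per kilobase of exon, scaled to the mapped fragments of the library (FPKM), taken by the authors' software over the 3 fetuses. The spread between fetuses is therefore unknown here, and no difference below carries an error or a test. The authors' own p-values and q-values were not used, so no statement is made on whether a difference exceeds the variation between animals. Total fragments per library are not used here either, so no counting interval is given. All 9 markers of cerebral cortex that were looked up had a mean FPKM of at least 1, and their FPKM summed to 820 for the control group, 746 for unaffected and 942 for affected fetuses. Blood markers, of which 5 of 6 were in the table, summed to 5577, 7216 and 3460 FPKM in the same order. Summed markers of microglia (46.4, 49.2 and 40.1 FPKM), meninges (70.8, 65.3 and 62.6), thalamus (9.46, 7.26 and 7.19) and choroid plexus (985, 1308 and 1096) also differed between groups. Genes of the meninges and microglia lists went both ways. Dcn and Lum were lower in affected than in control fetuses, and Col1a1, Col1a2 and Foxc1 were higher. Likewise Cx3cr1, C1qa and C1qb were lower, and Csf1r and P2ry12 were higher. The choroid plexus sum was mostly Ttr (970, 1291 and 1077 FPKM), and only 2 of 4 thalamus markers had a mean FPKM of at least 1. Markers of ventral telencephalon summed to 167, 194 and 180 FPKM, of endothelium to 54.9, 55.3 and 56.5, and of astrocytes and oligodendrocytes to 38.5, 36.3 and 40.0. The part of tissue composition in the differences below was not tested, and in bulk tissue fewer cells of a type and less RNA per cell cannot be told apart.

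mTOR is a serine/threonine kinase that works in 2 complexes sharing the subunit mLST8. mTORC1, defined by Raptor, senses amino acids and growth factors at the lysosome and promotes protein synthesis and growth through S6 kinases and 4E-BP proteins. mTORC2, defined by Rictor, mSin1 and Protor-1, phosphorylates Akt and other kinases of the AGC family and acts on the cytoskeleton and cell survival. In the developing cortex both complexes are known for their part in the growth of neural progenitors and of neurons. FPKM report the amount of RNA, not the assembly of the complexes or the phosphorylation of Akt.

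The sequences just upstream of the transcription start are shown for the 4 genes that reached at least 1.2-fold in one of the comparisons below, as the context of these differences. They are the 250 bases before the RefSeq start in the mouse assembly GRCm38.p6, written 5' to 3' on the gene's strand. Mtor is on the plus strand (chr4:148448332-148448581), as are Rptor (chr11:119602655-119602904) and Rictor (chr15:6708131-6708380), and Tti1 is on the minus strand (chr2:158028435-158028684). Capitals mark matches to any of 7 motifs searched on both strands, which were the Sp1 GC box GGGCGG, the CCAAT box CCAAT, an ETS site CCGGAAG, the NRF1 core GCATGCGC, the E-box CACGTG, a FOXO site TGTTTAC and the TATA box TATAAA.
Mtor: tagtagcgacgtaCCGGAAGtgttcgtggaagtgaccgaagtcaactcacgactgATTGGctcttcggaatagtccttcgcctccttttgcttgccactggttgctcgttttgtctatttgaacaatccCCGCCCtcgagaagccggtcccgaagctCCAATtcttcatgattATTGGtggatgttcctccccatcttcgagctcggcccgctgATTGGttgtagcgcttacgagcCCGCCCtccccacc
Rptor: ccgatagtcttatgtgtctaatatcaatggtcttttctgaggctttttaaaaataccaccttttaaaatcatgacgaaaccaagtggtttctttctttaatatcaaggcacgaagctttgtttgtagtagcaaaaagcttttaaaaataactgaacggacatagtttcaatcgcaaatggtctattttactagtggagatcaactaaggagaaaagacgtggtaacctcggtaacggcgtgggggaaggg
Rictor: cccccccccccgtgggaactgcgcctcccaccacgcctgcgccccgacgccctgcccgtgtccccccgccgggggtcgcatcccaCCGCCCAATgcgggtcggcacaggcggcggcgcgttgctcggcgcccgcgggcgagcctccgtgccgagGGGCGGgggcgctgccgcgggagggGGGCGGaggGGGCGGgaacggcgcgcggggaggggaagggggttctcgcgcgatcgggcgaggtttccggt
Tti1: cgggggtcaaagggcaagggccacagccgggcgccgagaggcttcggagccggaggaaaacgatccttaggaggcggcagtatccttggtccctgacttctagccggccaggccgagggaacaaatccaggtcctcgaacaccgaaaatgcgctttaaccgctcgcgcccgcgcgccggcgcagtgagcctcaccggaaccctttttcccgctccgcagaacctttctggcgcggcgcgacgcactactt

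The Mtor window held 2 GC boxes, 4 CCAAT boxes and 1 ETS site. The Rictor window held 4 GC boxes and 1 CCAAT box, of which one GC box and the CCAAT box overlap by 2 letters. The Rptor and Tti1 windows held none of the 7 motifs. Over 32817 RefSeq promoter windows of the same length, 32.7% held a GC box, 33.8% a CCAAT box, 6.9% the ETS site, 2.25% the NRF1 core, 6.02% the E-box, 3.16% the FOXO site and 12.4% the TATA box. GC content was 54.4% in Mtor, 37.6% in Rptor, 81.2% in Rictor and 64.8% in Tti1, against a median of 52.4% over all windows. The 4 windows thus differ widely in composition. As the Rptor and Tti1 windows held none of the 7 motifs, they could share none with the others. A match of letters is a description and not a binding site.

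Levels are compared between genes on the FPKM scale, which is per length of transcript. In control fetuses Akt1 was the most abundant of the 9 at 160 FPKM, followed by Akt2 at 33.4 and Mapkap1 at 21.1. The other 6 lay close together, from Mlst8 at 8.46 and Rptor at 7.29 through Mtor at 6.08, Prr5 at 5.75 and Tti1 at 5.53 to Rictor at 3.99. Akt1, Akt2 and Mapkap1 at the top and Rictor at the bottom kept these places in all 3 groups, whereas neighbours among the middle genes changed places, such as Tti1, which was below Prr5 in control fetuses and above it in both exposed groups. Without a spread, the order among these middle genes cannot be called firm. A rough idea of the sampling behind these values comes from FPKM multiplied by the longest transcript, which was largest for Akt1 and smallest for Prr5 in every group, so Prr5 is the most thinly sampled of the 9.

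**Figure D1:**
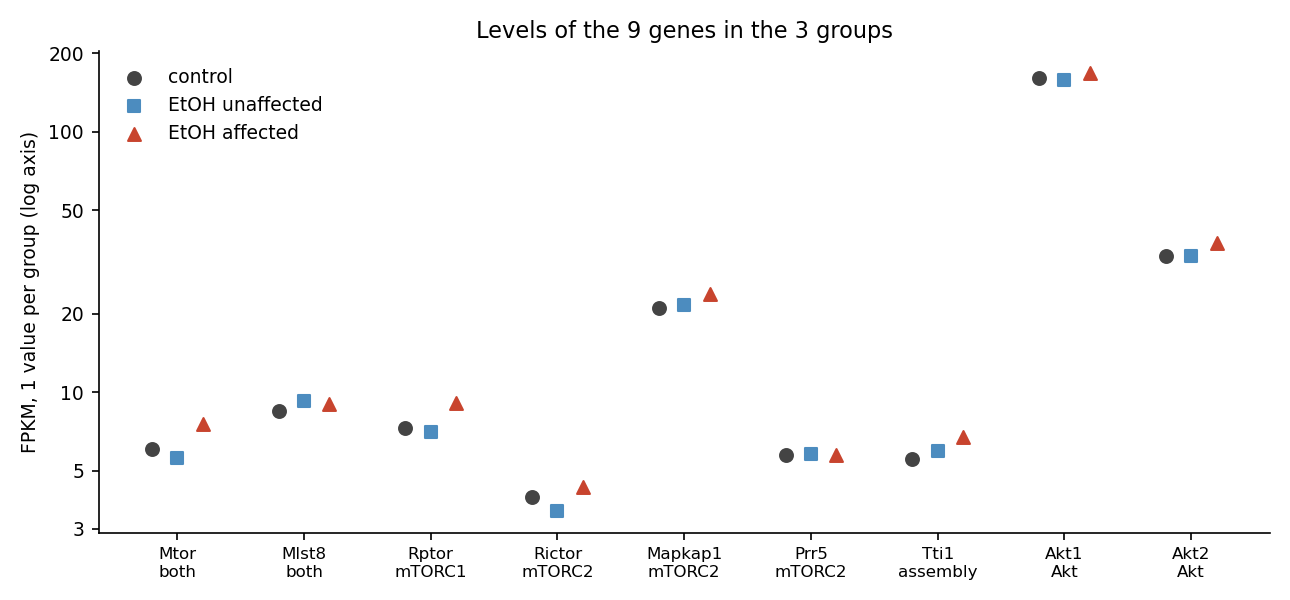
FPKM of the 9 genes (log axis), with 1 point per gene and group (grey circles control, blue squares EtOH-exposed unaffected, red triangles EtOH-exposed affected) and the complex each gene belongs to under its name ("both" for subunits of mTORC1 and mTORC2). There are no error bars because the table holds 1 value per group, and 7 of the 9 genes have their highest point in the affected group.

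The question put to the affected fetuses was whether the RNA of these genes differed from that of controls and from that of unaffected fetuses with the same exposure. Against control, 3 of the 9 genes were at least 1.2-fold higher in affected fetuses (Mtor, Rptor and Tti1) and 0 were at least 1.2-fold lower. Among the 15455 loci with a mean FPKM of at least 1 and a value above 0 in every group, 17.8% were at least 1.2-fold higher and 15.9% at least 1.2-fold lower in this comparison. Against unaffected fetuses, again 3 were at least 1.2-fold higher (Mtor, Rptor and Rictor) and 0 were lower, where 25.4% of loci were higher and 23.3% lower. Between unaffected and control fetuses no member reached 1.2-fold in either direction, where 7.33% of loci were higher and 9.57% lower. The limit of 1.2-fold is a difference of 0.26 on the log2 scale and is a description of size, not a test. The 3 comparisons share groups and are not independent of each other.

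For the 9 genes the median log2 ratio was 0.17 in each comparison of the affected group and below 0.01 in size between unaffected and control fetuses. Over all 15455 loci the medians were 0.02, 0.01 and below 0.01, with quartiles from -0.17 to 0.20, from -0.24 to 0.27 and from -0.11 to 0.11. Of the 9 genes, 7 had their highest FPKM in the affected group, against 45.0% of all loci, and the other 2 (Mlst8 and Prr5) had theirs in the unaffected group, against 39.0% of loci. None had its highest value in the control group, where 15.9% of loci did.

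Mtor, the kinase itself (chr4:148448582-148557685, mm10), had 6.08 FPKM in control, 5.58 in unaffected and 7.58 in affected fetuses. Its log2 ratio was 0.32 against control and 0.44 against unaffected, so the affected group was 1.25-fold and 1.36-fold higher, while the unaffected group lay slightly below control at -0.12. Of the 9 genes it had the largest ratio in affected against unaffected, and this value exceeded that of 86.7% of loci. Mlst8, the small subunit that binds the kinase domain in both complexes (chr17:24473550-24479078), had 8.46, 9.25 and 9.01 FPKM. Its log2 ratios of 0.09 against control and -0.04 against unaffected were both below the 1.2-fold limit. Mlst8 FPKM divided by Mtor FPKM gave 1.39 for control, 1.66 for unaffected and 1.19 for affected fetuses, so the gap between them changed with the group. At like transcript length, by the longest transcript, Mtor stood at 0.09 and Mlst8 at 0.03 against control, and at 0.07 and -0.12 against unaffected. The gap was thus smaller in both comparisons. Deptor, an inhibitor bound to both complexes that is not among the 9, was at 0.258, 0.243 and 0.298 FPKM, below the limit for comparison.

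Rptor encodes Raptor, the scaffold that brings substrates to mTORC1 (chr11:119602995-119899626). It had 7.29, 7.05 and 9.12 FPKM in control, unaffected and affected fetuses. Its log2 ratio of 0.32 against control and 0.37 against unaffected followed that of Mtor closely, and Rptor kept nearly the same ratio to Mtor in affected as in control fetuses. Akt1s1, which encodes the other mTORC1-specific subunit PRAS40, an Akt substrate and inhibitor of the complex, had 49.7, 53.7 and 51.9 FPKM. It differed by 0.06 against control and by -0.05 against unaffected on the log2 scale, so of the 2 mTORC1-specific genes only Rptor passed 1.2-fold in the affected group. At like transcript length, a step described below, the order turned, with 0.18 and 0.15 for Akt1s1 and 0.12 and 0.06 for Rptor.

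Rictor encodes the scaffold that defines mTORC2 (chr15:6708381-6800400) and had the lowest level of the 9, with 3.99 FPKM in control, 3.51 in unaffected and 4.35 in affected fetuses. The affected group was 1.24-fold higher than the unaffected group (log2 ratio 0.31) but 1.09-fold higher than control (0.13), since the unaffected group lay below control by a log2 ratio of -0.18. The latter was the largest departure of any of the 9 genes between unaffected and control fetuses, but at like transcript length, a step described below, it was -0.03 and the largest was that of Mlst8 at 0.14.

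Mapkap1 encodes mSin1, which places Akt before the mTORC2 kinase (chr2:34406864-34624951), and had 21.1, 21.6 and 23.9 FPKM. Its log2 ratios were 0.18 against control and 0.15 against unaffected. Prr5 encodes Protor-1, a Rictor-binding subunit (chr15:84680998-84703673), and its 5.75, 5.79 and 5.75 FPKM were the flattest of the set, with an affected to control ratio of 1.00. Its relative Prr5l was at 0.756, 0.862 and 0.934 FPKM, below the limit for comparison. None of the 3 mTORC2-specific genes was at least 1.2-fold higher against control, where 17.8% of loci were, and 1 of 3, Rictor, was against unaffected fetuses, where 25.4% were. That Rictor value fell to 0.25 with a pseudocount of 1, under the limit, and turned to -0.09 at like transcript length. At like length Mapkap1 stood at 0.16 against control and 0.14 against unaffected, and Prr5 at 0.12 and 0.20. The median of the 3 mTORC2-specific genes was then 0.12 and 0.14, and that of the 2 mTORC1-specific genes was 0.15 and 0.11.

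The scaffolds of the 2 complexes were compared directly. Rictor FPKM divided by Rptor FPKM gave 0.547 for control, 0.498 for unaffected and 0.477 for affected fetuses. On the log2 scale the Rictor change was lower than the Rptor change by a difference of -0.20 in affected against control, of -0.06 in affected against unaffected and of -0.13 in unaffected against control. In RNA, the scaffold of mTORC2 was therefore not higher relative to that of mTORC1 in either exposed group. At like transcript length the differences were -0.24, -0.15 and -0.08, so that in affected against unaffected was more than 2 times as large. Whether these differences exceed the spread between fetuses cannot be said from 1 value per group.

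Tti1 belongs to the TTT complex, with Telo2 and Tti2, which stabilises newly made mTOR and its relatives (chr2:157981803-158028405). It had 5.53, 5.94 and 6.77 FPKM. Its log2 ratio was 0.29 against control and 0.19 against unaffected, so it was the only one of the 9 that passed 1.2-fold against control but not against unaffected. Telo2 had 6.86, 6.80 and 7.88 FPKM, with log2 ratios of 0.20 and 0.21. In the list of 8 assembly and stability factors, 1 gene (Tti1) was at least 1.2-fold higher and 0 were lower against control, and 0 were higher and 1 was lower against unaffected, where 17.8% and 15.9%, and 25.4% and 23.3%, of all loci were. The latter was Pih1d1, a subunit of the R2TP chaperone complex, with 53.6, 58.2 and 45.8 FPKM and a log2 ratio of -0.35, of which 0.02 was left after the running median at its length, described below.

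Akt1, a kinase that promotes cell survival and growth (chr12:112653821-112674831), had 160, 158 and 168 FPKM in control, unaffected and affected fetuses. Its log2 ratios of 0.07 and 0.09 were small. Akt2, known for its role in insulin signalling (chr7:27591560-27639453), had 33.4 FPKM in control, 33.4 in unaffected and 37.5 in affected fetuses, with log2 ratios of 0.17 and 0.17. Akt1 RNA was therefore far more abundant than Akt2 RNA in every group, and Akt2 FPKM divided by Akt1 FPKM gave 0.208 for control, 0.212 for unaffected and 0.223 for affected fetuses.

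**Figure D2:**
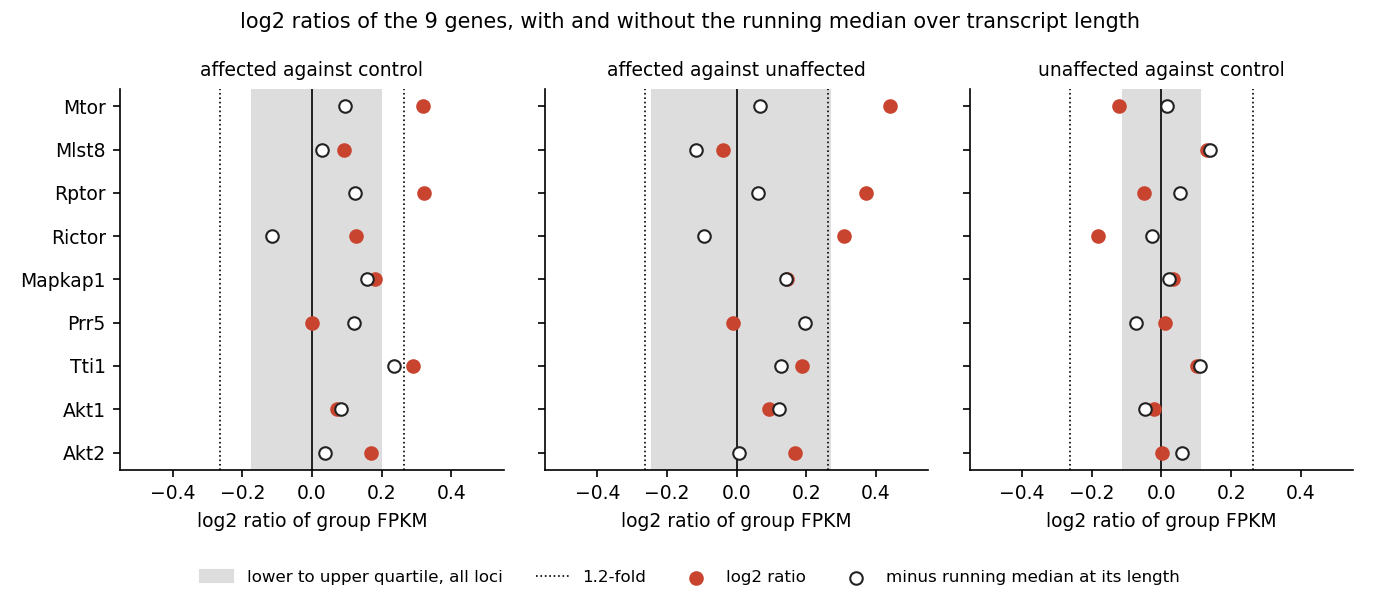
log2 ratio of group FPKM for the 9 genes in the 3 comparisons (red points), and the same ratio minus the running median over 501 loci of like transcript length (open points). Dotted lines mark 1.2-fold and the grey band runs from the lower to the upper quartile of all 15455 loci; Mtor and Rptor lie beyond the 1.2-fold line in both comparisons with the affected group, and no open point does.

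The log2 ratios moved with transcript length across the whole table. Length was taken as the longest transcript of a gene in GENCODE M21 and was found for 11618 loci. The loci were divided by length into 10 bins. In the bin of the shortest loci (64 to 1266 nt) the median log2 ratio was -0.28 in affected against control and -0.41 in affected against unaffected. In the bin of the longest (6803 nt and above) it was 0.24 and 0.39. Between unaffected and control fetuses the medians ran the other way, from 0.13 in the shortest to -0.14 in the longest loci. Why length and ratio move together was not tested.

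The 3 genes that passed 1.2-fold against unaffected fetuses are the 3 longest of the 9, with transcripts of 9312 nt for Rictor, 8564 nt for Mtor and 6594 nt for Rptor, whereas the flat gene Prr5 is the shortest at 1830 nt. The running median at the length of Mtor was 0.22 in affected against control and 0.37 in affected against unaffected, which left 0.09 and 0.07 for Mtor itself. For Rptor 0.12 and 0.06 were left. With the median in place of the longest transcript length, the remainders against unaffected were 0.20 for Mtor and below 0.01 for Rptor. For Rictor the remainder was -0.11 and -0.09, so its ratio was below that of loci of like length, although its FPKM was highest in affected fetuses.

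For Tti1, of intermediate length at 3830 nt, 0.23 and 0.13 of the log2 ratio were left, the former being the largest remainder of the set against control. Prr5 stood 0.12 and 0.20 above loci of its length. Mapkap1 at 3111 nt kept 0.16 and 0.14, Akt1 at 2690 nt kept 0.08 and 0.12, Akt2 at 4544 nt kept 0.04 and less than 0.01, and Mlst8 at 3855 nt kept 0.03 and -0.12. After this step, 0 of the 9 genes differed by 1.2-fold in any comparison, where 17.1%, 27.8% and 5.13% of loci still did in either direction. The median of the 9 was 0.09 against control and 0.07 against unaffected. Above loci of their length lay 8 genes in the former comparison and 7 in the latter, where 49.9% and 49.8% of all loci do so by construction. Quartiles of the remainders over all loci ran from -0.13 to 0.12 and from -0.17 to 0.16, so most members lay within them.

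**Figure D3:**
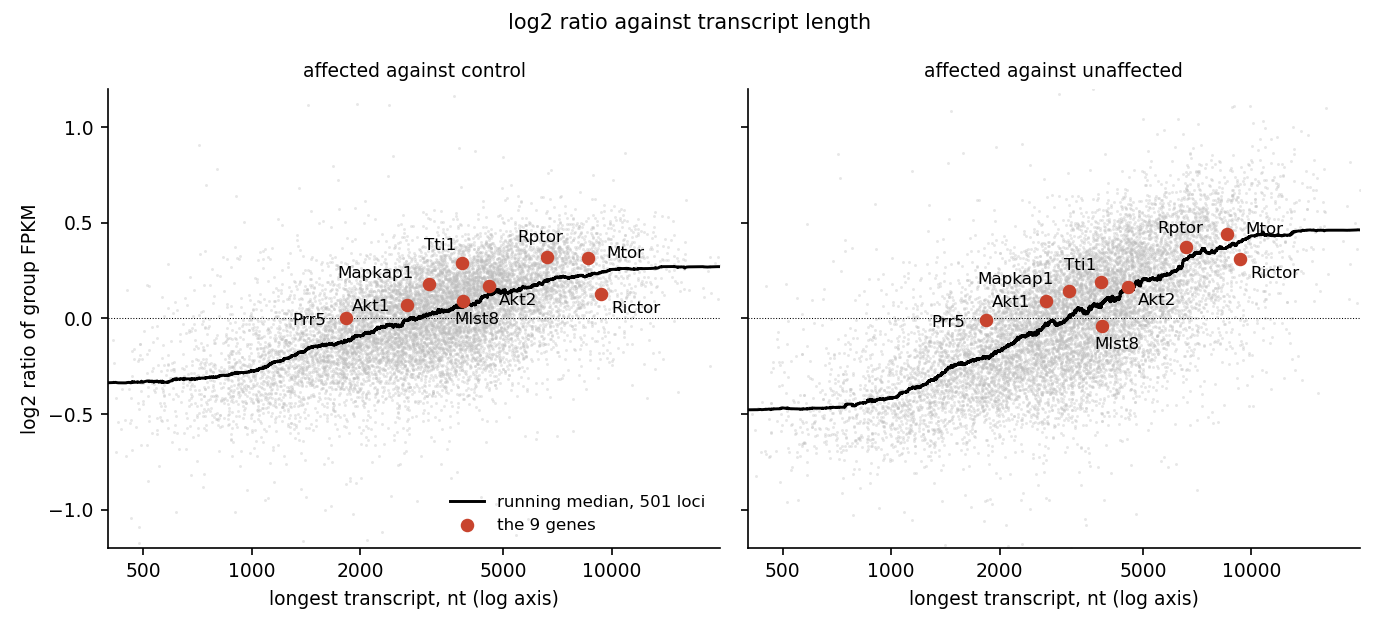
log2 ratio of group FPKM against the longest transcript (nt, log axis) for affected against control (left) and affected against unaffected fetuses (right). Grey dots are loci with a mean FPKM of at least 1, of which those outside the axes are not drawn, the black line is the running median over 501 loci and red points are the 9 genes; by this measure of length Mtor and Rptor lie just above the line, Rictor below it, and Tti1 farthest above it on the left.

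The wider pathway was described with 13 gene lists holding 119 further genes, of which 110 had a mean FPKM of at least 1. Against control, 22 of these 110 were at least 1.2-fold higher and 13 at least 1.2-fold lower in affected fetuses. Against unaffected fetuses, 40 were higher and 21 lower. Between unaffected and control fetuses, 1 was higher and 10 were lower. The shares of all loci were 17.8% and 15.9%, 25.4% and 23.3%, and 7.33% and 9.57% in the same order. The counts of each list below, other than those at like length, are to be read against these shares. The medians were 0.10, 0.16 and -0.05, and within 0.02 of 0 once the running median at each gene's length was subtracted. After that step 4 of 106 genes with a length were at least 1.2-fold higher and 7 lower against control, where 7.26% and 9.83% of loci were. Against unaffected, 14 were higher and 12 lower, where 27.8% of loci were past 1.2-fold in either direction. Of the genes named below, those past 1.2-fold after the step were Igf1, Eif4ebp2 and Sgk3 in both comparisons, Rhebl1 against control, and Igf1r, Tsc2, Larp1, Eif4ebp1 and Prkce against unaffected.

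Upstream of Akt, 17 genes of the PI3K pathway had a median log2 ratio of 0.20 against control and 0.38 against unaffected, with 4 and 11 genes at least 1.2-fold higher and 1 lower in each. Their median transcript length was 7052 nt, and at like length the medians were below 0.01 in size and 0.04. The highest gene was Igf1r, the receptor for insulin-like growth factors, with 6.33, 5.25 and 8.67 FPKM and log2 ratios of 0.45 and 0.72, which were 0.20 and 0.29 at like length, where it was no longer the highest. The lowest was Igf1, one of its ligands, with 3.08 FPKM in control, 2.74 in unaffected and 1.47 in affected fetuses. Its log2 ratios of -1.07 and -0.90 were the lowest of the pathway genes and were -1.28 and -1.24 at like length, while the other ligand Igf2, named after its values were seen, had 76.9, 75.7 and 75.6 FPKM. Igf1r and Igf1 are named as the extremes of the list, and Igf2, the far more abundant ligand, was nearly flat.

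Of 20 activators of mTORC1 at the lysosome, 15 were below control and 15 below unaffected fetuses, unlike Mtor and Rptor and where 53.0% and 51.2% of all loci were above. Against control 1 of them was at least 1.2-fold higher and 7 were lower, with a median log2 ratio of -0.14, and against unaffected 1 was higher and 9 were lower, with a median of -0.20. Their transcripts were short, with a median of 2258 nt, and at like length the medians were -0.15 and -0.11. Then 2 of 19 genes were at least 1.2-fold lower in each comparison and 0 and 1 were higher. Of all loci with a length, 17.1% and 27.8% were past 1.2-fold in either direction after this step. Rhebl1, a relative of the mTORC1 activator Rheb, had 9.08, 8.11 and 6.18 FPKM and a log2 ratio of -0.55 against control, and -0.35 at like length. Lamtor5, a subunit of the Ragulator that anchors the Rag GTPases, had 75.9, 78.6 and 54.1 FPKM and a log2 ratio of -0.54 against unaffected, and -0.11 at like length. The 1 gene of the list that was at least 1.2-fold higher, in both comparisons, was Fnip2, a partner of folliculin, at 5.59, 4.69 and 6.71 FPKM, and at like length it did not reach the limit in either.

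Among 18 inhibitors of mTORC1, 6 were higher and 2 lower against control, and 6 were higher and 4 lower against unaffected. Their median log2 ratios of 0.13 and 0.17 became -0.02 and less than 0.01 in size at like length. Tsc2, whose protein switches off Rheb, had 15.1, 13.2 and 19.5 FPKM and was highest against control, with a log2 ratio of 0.37. Kptn, a subunit of the KICSTOR complex, had 12.5, 13.6 and 10.2 FPKM and was lowest against unaffected at -0.41. Ddit4, a stress-induced inhibitor, had 66.6, 68.5 and 53.9 FPKM and was lowest against control at -0.30.

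Among 18 mTORC1 substrates and effectors, 6 were higher and 2 lower against control, and 8 were higher and 3 lower against unaffected. Their median log2 ratios of 0.16 and 0.21 became 0.05 and 0.10 at like length. Eif4ebp2, which represses cap-dependent translation, had 36.8, 35.2 and 50.8 FPKM and a log2 ratio of 0.46 against control. Its relative Eif4ebp1 had 5.12, 7.30 and 4.81 FPKM, a log2 ratio of -0.60 against unaffected and the highest value of the list in unaffected against control (0.51). Larp1, a regulator of the translation of ribosomal protein mRNAs, had 14.6, 11.8 and 18.8 FPKM and a log2 ratio of 0.67 against unaffected. Rps6, the ribosomal protein that S6 kinase phosphorylates, had 821, 919 and 658 FPKM and a log2 ratio of -0.32 against control, which was -0.03 at like length. The list thus held genes that differed in both directions.

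Downstream of mTORC2, 10 other substrate kinases had a median log2 ratio of 0.12 against control, with 2 higher and 0 lower, and of 0.31 against unaffected, with 6 higher and 0 lower. At like length the medians were 0.02 and 0.11. The protein kinase C genes were highest, with Prkca at 6.67, 5.79 and 8.54 FPKM and Prkce at 35.9, 29.0 and 44.8 FPKM, and Sgk3 was lowest at 1.98, 1.98 and 1.66 FPKM. Among 10 Akt substrates, 2 were higher and 1 lower against control and 3 were higher and 3 lower against unaffected. Their median log2 ratios of 0.11 and 0.20 became -0.08 and -0.08 at like length. They ran from Gsk3b, a kinase that Akt inhibits, with 28.7, 24.7 and 36.9 FPKM, to Bad, a pro-apoptotic protein that Akt inactivates, with 37.2, 42.2 and 30.3 FPKM.

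The other members of the mTOR family, which depend on the same TTT complex, were compared as relatives of similar build. Of the 4 abundant enough for comparison, 1 was at least 1.2-fold higher against control and 3 against unaffected, with none lower. Trrap had 6.99, 6.18 and 9.51 FPKM and log2 ratios of 0.44 and 0.62, and Atr had 2.15, 1.99 and 2.33 FPKM and log2 ratios of 0.11 and 0.23. These genes have a median transcript of 11149 nt, and at like length their medians were -0.06 and 0.06. All 4 enzymes of acetate and acetyl-CoA metabolism were above control in affected fetuses, by log2 ratios from 0.17 for Acss2 to 0.26 for Acaca, as were 53.0% of all loci, and none passed 1.2-fold. Against unaffected they ran from 0.01 for Acss1 to 0.47 for Acaca. At like length their medians were 0.12 and 0.05, and Acaca stood at 0.01 and 0.06.

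**Figure D4:**
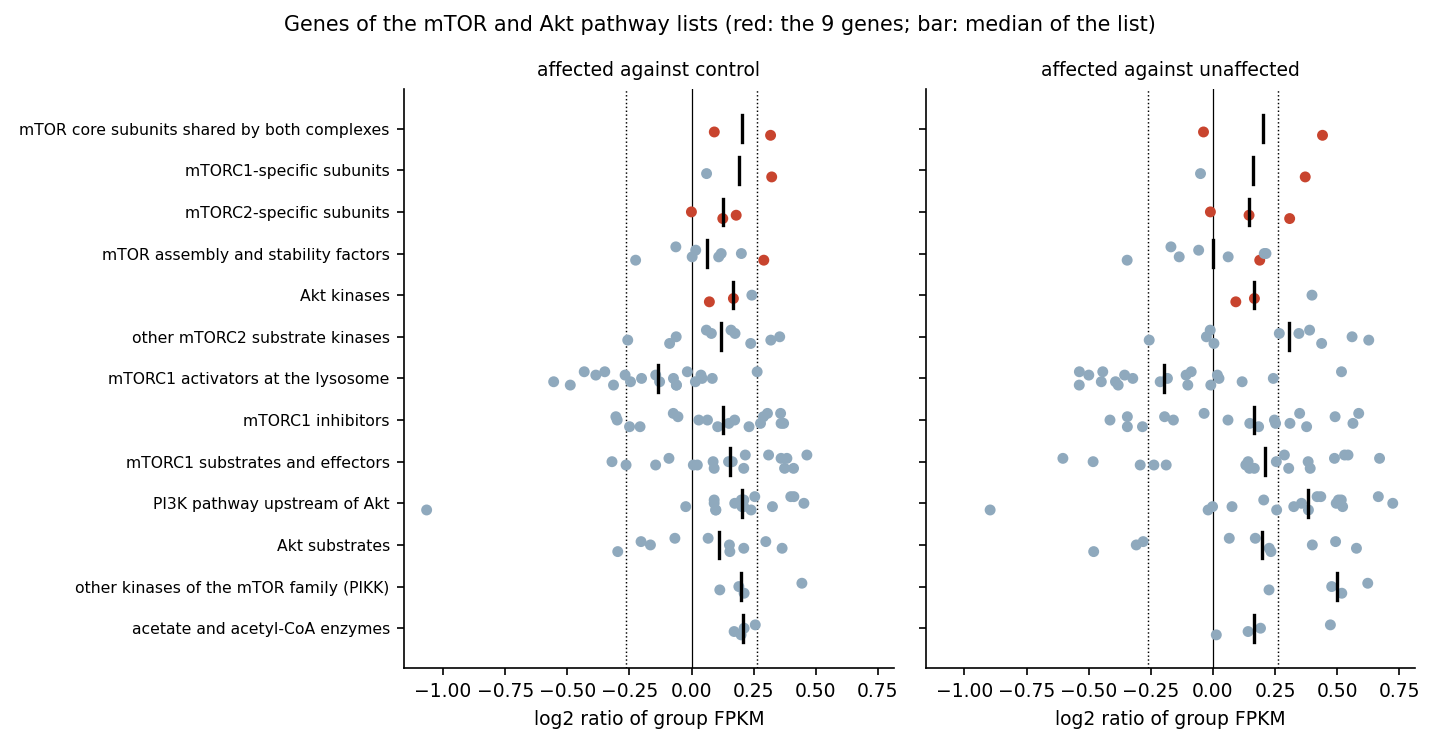
log2 ratio of group FPKM for the genes of the 13 pathway lists with a mean FPKM of at least 1, in affected against control (left) and affected against unaffected fetuses (right). Each point is 1 gene, red points are the 9 genes, black bars are list medians and dotted lines mark 1.2-fold; the activators at the lysosome have the lowest median and Igf1 is the point farthest to the left.

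Genes with a pattern like that of Mtor were sought among 4368 single-name loci within 2-fold of its mean FPKM, by the distance between their pairs of log2 ratios to control over the 3 groups. The 5 nearest were Pde10a, Nin, Phf21a, Fbxo42 and Fbxo41, all within 0.0066 on the log2 scale. Pde10a, for instance, had 11.3, 10.4 and 14.2 FPKM. Their longest transcripts ranged from 5934 to 9919 nt, around that of Mtor at 8564 nt. For Rictor, among 3799 loci, Tmed8, Cd97, Fkbp10 and Wdr60 were among the nearest, within 0.014, and Tmed8 had 2.73, 2.41 and 2.96 FPKM. The transcripts of Tmed8, Fkbp10 and Wdr60, at 7409, 2584 and 3721 nt, are shorter than that of Rictor at 9312 nt. Such close matches are easily found among so many loci with only 3 values each.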

How the data were processed

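RNA libraries were made with the Illumina TruSeq kit and sequenced as 50-bp paired-end reads, from RNA extracted with Trizol per the labels and with RNeasy per the study's methods. The authors aligned reads to mm10, for which the methods name both STAR (default settings) and Bowtie/TopHat and the submitters' processing notes name Bowtie2 2.2.4.0, and used Cufflinks and Cuffdiff (versions not given in the sources used here). The deposited FPKM are 1 value per locus and group over 3 fetuses. The table also holds the authors' fold changes, test statistics, p-values and q-values for the 3 comparisons, which were not used.

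log2 ratios of group FPKM were computed without a pseudocount for 15455 of 27095 loci (mean FPKM of at least 1, every group above 0) with pandas 2.3.3 and numpy 2.4.6. A difference of at least 1.2-fold was counted. The table gives no values of single fetuses, so no test, error or leave-one-out value was computed. Longest transcripts came from GENCODE M21, were found for 92.4% of named loci, and served for a running median over 501 loci, tested on simulated data. Castor1 and Castor2 were found under the older names Gatsl3 and Gatsl2, and Rragc, Eif4ebp3 and Gsk3a lie in joined loci and are uncertain. All 9 members matched the RefSeq promoter table.

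Named were the 9 genes, the rest of the core, mTORC1, mTORC2 and Akt lists, the highest and lowest gene of each other list in both affected comparisons, and the 5 genes most like Mtor and Rictor, except a few that are not reported here. Members and lists were chosen with earlier results of these data known.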

Additional observations from a re-analysis of the deposited data

How the results depend on the processing

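No paired analysis was possible because the table holds 1 value per group and no values of single fetuses, although the labels number the fetuses 1 to 3 in each group. For the same reason no fetus could be left out. With a limit of 1.1-fold, 5 of the 9 genes were higher against control, 6 against unaffected, and 1 (Rictor) was lower in unaffected than in control fetuses, where 33.5%, 37.2% and 20.97% of all loci did so. With a limit of 1.5-fold, the counts of higher genes were 0 in both affected comparisons, where 3.47% and 7.19% of all loci were higher. At 1.2-fold they were also 0 after subtracting the running median at the longest transcript length. The same held for the median transcript length, an alternative added after seeing the data. With the longest length, 17.1% and 27.8% of loci were past 1.2-fold in either direction. Rictor in affected against unaffected turned from 0.31 to -0.093 with the longest and -0.15 with the median transcript length. Rptor in that comparison was 0.06 and below 0.01, and Mtor 0.07 and 0.20. With a pseudocount of 1 both counts fell from 3 to 2, since Tti1 against control (0.25) and Rictor against unaffected (0.25) no longer reached 1.2-fold, so the 1 mTORC2-specific gene past the limit was lost. A mean FPKM of at least 5 left Rictor out, for a count of 2 against unaffected. A pseudocount of 0.1, centring on the median locus, upper-quartile scaling, no filter on low FPKM, a mean FPKM of at least 5, leaving out joined loci and, added after seeing the data, counting only loci with 1 gene name, moved no count of members by more than 1.5 times and, where they apply, no median of the members by 0.1. The Rictor minus Rptor difference moved by less than 0.1 under both pseudocounts and both length steps, although in affected against unaffected it went from -0.06 to -0.15 with either length. Depth per fetus is unknown, and it limits Prr5, with the fewest fragments, most.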
